A study of Arabidopsis thaliana with 9 samples.

Results

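The transcription units described here are 242 of the 3569 units on a noncoding RNA array that carried a TU name without coordinates, among 5154 transcripts with probes in all. A unit belonged to the set when none of its probes was well above background on all 6 arrays of the mutants se-2 and cbp20 cbp80, and at least 1 probe was so on all 3 arrays of at least 1 genotype. Well above background is a flag that the scanner software sets per spot, and a genotype is called complete here for a probe flagged on its 3 arrays. The flags of these same 9 arrays chose the members, so their levels and differences are a description and carry no test. The set was labelled as units not consistent in both mutants, and the genotypes were uneven in it: 200 members were complete in se-2, 54 in WT and 21 in cbp20 cbp80. Of the other units, 711 were complete on all 6 mutant arrays and 2616 were complete in no genotype.

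The samples were whole Arabidopsis thaliana seedlings, 2 weeks old, grown on solid MS medium in long days. The mutants were se-2, an allele of SERRATE, and the double mutant cbp20 cbp80, whose alleles the labels do not name, and the wild type (WT) was Col-0. Each genotype had 3 biological replicates with 1 Cy3 array each. The array held no probe for SERRATE, CBP20 or CBP80 and none for 7 of 8 genes that mark leaf, root or seed, so neither the mutations nor the tissue could be checked on it.

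SERRATE is a nuclear zinc finger protein that assists the processing of primary microRNA transcripts and the splicing of messenger RNA precursors. CBP20 and CBP80 form the cap-binding complex, which holds the cap at the start of RNA polymerase II transcripts and takes part in the same steps. Transcription units outside protein genes can give long noncoding RNAs, many of which are made at low levels in only some cells. The files gave no gene name, function or sequence for any member.

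Between 2192 and 3711 of the 15013 probes were well above background on an array, and with 3 arrays a genotype the precision is low. The 6 mutant arrays shared 1 slide and the WT arrays were on 3 others, 1 on each, so a difference from WT cannot be told apart from a difference between slides. Signals are intensities scaled so that the arrays share the 75th percentile of the 1835 probes flagged on every one of the 9 arrays. Differences are on the log2 scale of these signals, and their standard errors (SE) come from limma (n = 3 arrays per genotype). The median SD of members between replicates was 0.221 in se-2, 0.378 in cbp20 cbp80 and 0.676 in WT on that scale. The SE of a difference from WT rests on 1 spread shared by the 3 genotypes, so it does not show WT's own. It also takes the arrays as independent, while a fit with the slide as a random block gave a correlation of 0.948 within a slide. Each member is represented by its leading probe, the one complete in most genotypes and then the brightest.

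The members were dim. Their median signal was 4.84 units in se-2, 5.20 in cbp20 cbp80 and 5.78 in WT, against 16.0, 21.6 and 17.5 units for the units complete on all 6 mutant arrays. By the genotypes in which any of their probes was complete, 172 members were complete in se-2 alone, 26 in se-2 and WT, 23 in WT alone, 14 in cbp20 cbp80 alone, and 5 in cbp20 cbp80 and WT. The remaining 2 were complete in both mutants, each by a different probe. In these bulk samples, less RNA per cell and fewer cells with the RNA cannot be told apart.

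**Figure D1:**
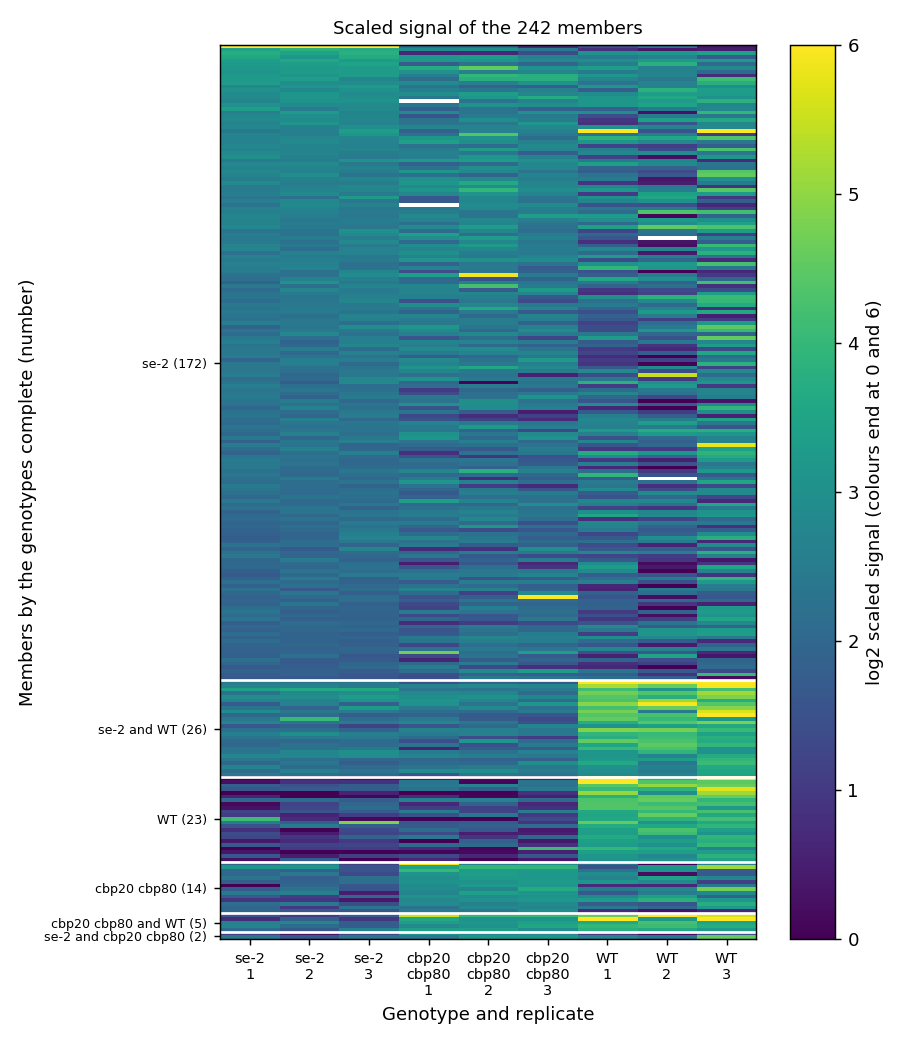
Scaled signal on a log2 scale for the 242 members (rows) on the 9 arrays (columns), grouped by the genotypes in which they were complete and sorted by brightness within a group; a white cell is a spot left out as an outlier. The 172 members complete in se-2 alone have nearly the same colour on the se-2 and cbp20 cbp80 arrays, while the 23 members complete in WT alone are bright in WT and dark in both mutants.

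Single arrays set much of the membership. The leading probe was well above background for 208 to 215 members on the se-2 arrays, for 116, 123 and 46 on those of cbp20 cbp80 replicates 1, 2 and 3, and for 60, 136 and 136 on those of WT replicates 1, 2 and 3. The arrays of cbp20 cbp80 replicate 3 and WT replicate 1 thus held the fewest. In 63 members the array of cbp20 cbp80 replicate 3 was the only one of that genotype without the flag, and in 39 members the array of WT replicate 1 was the only such WT array. Without cbp20 cbp80 replicate 3 the rule gave 205 units, 175 of them among the 242, and 53 of the 205 were complete in cbp20 cbp80. Without WT replicate 1 it gave 305 units, 163 of them complete in WT. With both arrays left out, an alternative chosen after seeing the data, it gave 264 units, 133 complete in se-2, 53 in cbp20 cbp80 and 137 in WT.

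**Figure D2:**
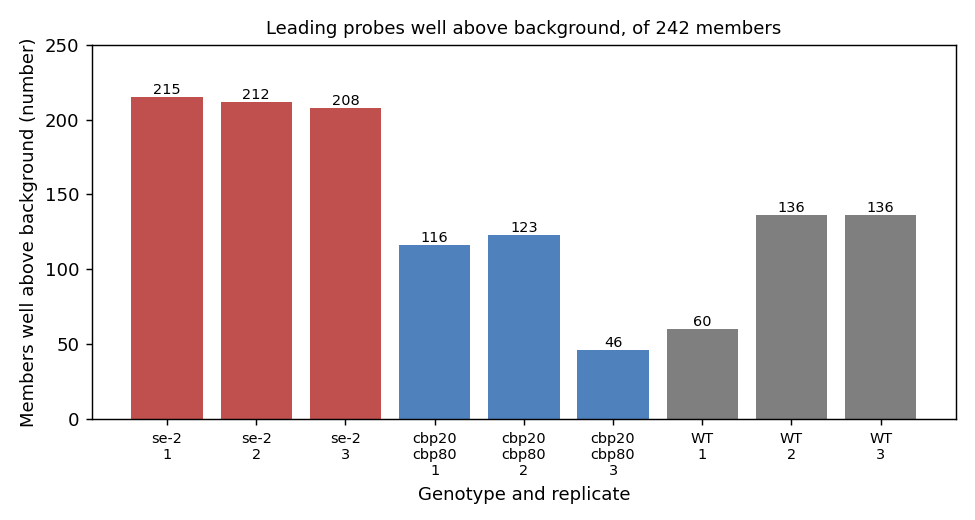
Number of the 242 members whose leading probe was well above background on each array, by genotype and replicate. The array of cbp20 cbp80 replicate 3 holds 46 and that of WT replicate 1 holds 60, against 116 or more on each of the other 7.

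At the edge of the rule, 92 members had a leading probe well above background on 5 of the 6 mutant arrays, and in 62 of them the missing array was cbp20 cbp80 replicate 3. In 19 of those 62 the missing spot still lay above the lowest flagged signal of its array. This was so in 3 of 5 and 3 of 12 for cbp20 cbp80 replicates 1 and 2. For se-2 replicates 2 and 3 it was so in 3 of 5 and 4 of 8. The members whose missing spot lay furthest below the lowest flagged signal of its array, as a ratio, were AT5TU083960, AT1TU095730 and AT4TU049020. AT5TU083960 had 5.30, 6.12 and 1.39 units in se-2 and 6.69, 10.4 and 8.76 in cbp20 cbp80. AT1TU095730 had 5.71, 6.46 and 4.80 units in se-2 and 6.32, 5.63 and 3.36 in cbp20 cbp80. AT4TU049020 had 5.02, 5.06 and 6.11 units in se-2 and 6.01, 6.05 and 3.15 in cbp20 cbp80. The units just outside the set, flagged on all 6 mutant arrays, had values in the same range. AT3TU044040 had 4.58, 5.12 and 3.18 units in se-2 and 7.26, 8.61 and 10.05 in cbp20 cbp80, AT1TU071650 a lowest value of 3.27 and AT1TU066330 one of 3.38. Those lowest values were on se-2 arrays, where the lowest flagged scaled signal was 2.97 to 3.14 units. On the array of cbp20 cbp80 replicate 3 it was 6.33 units, so values of different arrays do not share 1 limit.

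The 172 members complete in se-2 alone were the largest group, and how they compared with cbp20 cbp80 moved with the scaling. As the scanner software gave it, the median signal of a member was 7.54 units in se-2, 4.99 in cbp20 cbp80 and 3.32 in WT. After scaling it was 5.07 units in se-2, 5.17 in cbp20 cbp80 and 4.57 in WT. The lowest signal that was well above background on an array, which serves as the detection limit, was 4.48 to 4.54 units on the se-2 arrays before scaling and 2.97 to 3.14 after it. On the cbp20 cbp80 arrays it was 4.46, 4.56 and 5.87 units before scaling and 4.58, 4.91 and 6.33 after it. On the WT arrays it was 3.65, 4.39 and 3.74 units before scaling and 7.10, 4.17 and 5.55 after it. The scaled limit was thus lower on every se-2 array than on any other array.

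**Figure D3:**
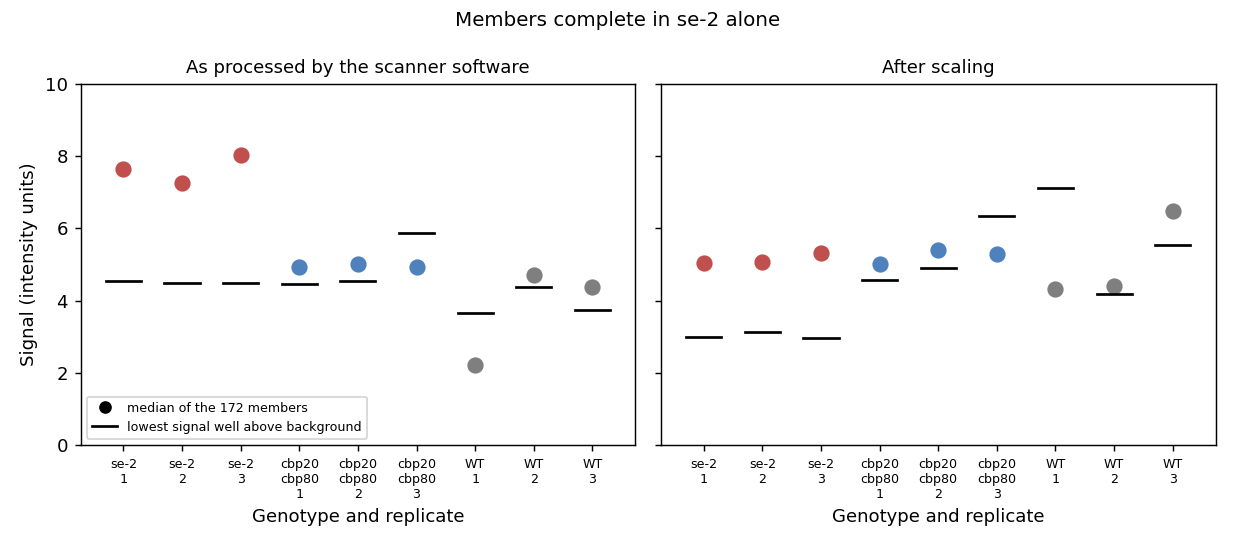
Median signal of the 172 members complete in se-2 alone (points) and lowest signal well above background (bars) on each array, before scaling (left) and after scaling (right), in intensity units. Before scaling the se-2 medians of 7.24 to 8.01 lie above all others, and after scaling the medians of the 6 mutant arrays lie between 5.01 and 5.39 while the se-2 limits are the lowest of all.

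Within this group the difference of se-2 from cbp20 cbp80 was above 0 in 81 members and below it in 91, with a median of -0.028 against -0.21 over all 1724 transcripts tested. The difference of se-2 from WT was above 0 in 107 members, with a median of 0.17 against 0.0089 over all transcripts. Other scalings moved these counts and medians. For se-2 against cbp20 cbp80, 108 members were above 0 with median scaling (median 0.13) and 146 with quantile normalization and with the deposited value table (0.33 in each). The percentile of all probes gave 145 (0.34) and normexp just 1 (-0.52). Of all 1724 transcripts, 763 were above 0 with median scaling (-0.053), 969 with quantile normalization (0.056) and 974 with the deposited table (0.060). The percentile of all probes gave 1101 of them (0.15) and normexp 187 (-0.47). For se-2 against WT the median was 0.070 with median scaling, 1.02 with quantile normalization and 1.12 with the percentile taken over all probes. Normexp background correction made it -0.89. For all transcripts these were -0.078, 0.26, 0.96 and -0.77. A fold is written as at least a value where the dimmer genotype was not complete, with each of its dim arrays set at its detection limit or own signal, whichever was larger. A bound that allowed no difference counts as 0, and with every dim genotype at its bound the median difference of se-2 over these 172 members was 0 from both cbp20 cbp80 and WT. On that basis the se-2 mean lay above that of cbp20 cbp80 in 34 members, above that of WT in 26 and above both in 14.

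AT1TU090130 stood far above the rest of that group. It had 131, 135 and 147 units in se-2, against 4.59, 4.67 and 1.64 units in cbp20 cbp80 and 2.69, 4.98 and 1.3 units in WT. The se-2 arrays did not overlap with those of the other genotypes, and the unit was well above background on no cbp20 cbp80 array and on 1 WT array. Its signal in se-2 was at least 26.3-fold that in cbp20 cbp80 and at least 23.7-fold that in WT. By its other probes too, all se-2 arrays lay above all others: the probe with 43.8, 40.5 and 49.3 units in se-2 had 1.61, 4.57 and 1.55 in cbp20 cbp80 and 2.30, 1.19 and 4.45 in WT. The last probe had 49.0, 52.5 and 54.6 units in se-2, 2.35, 3.08 and 3.41 in cbp20 cbp80 and 5.18, 5.61 and 7.92 in WT.

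The next members of the group by that measure had far smaller ratios. AT4TU018930 had 11.2, 14.7 and 12.9 units in se-2, 7.49, 8.03 and 5.29 in cbp20 cbp80 and 1.78, 1.31 and 1.36 in WT. Its signal in se-2 was at least 2.35-fold that in WT, where no array was well above background, and at least 1.77-fold that in cbp20 cbp80, with 2 arrays well above background. AT1TU021610 had 13.3, 11.2 and 13.9 units in se-2, 1.59, 1.61 and 2.60 in cbp20 cbp80 and 8.30, 9.15 and 10.8 in WT. All cbp20 cbp80 arrays lay below all others and none was well above background. The signal in se-2 was at least 2.45-fold that in cbp20 cbp80, and at least 1.74-fold and 1.24-fold by its 2 further probes.

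AT5TU049660 had 9.27, 10.3 and 11.1 units in se-2, 3.29, 4.97 and 3.89 in cbp20 cbp80 and 5.87, 14.1 and 4.29 in WT, so se-2 lay above all cbp20 cbp80 arrays but overlapped with WT. Its second probe had 101 units on the array of cbp20 cbp80 replicate 3, against 5.01 and 5.71 on the others of that genotype, and for se-2 against cbp20 cbp80 the 2 probes had opposite signs. AT5TU090130 had 12.2, 8.86 and 12.7 units in se-2, 9.18, 9.91 and 6.08 in cbp20 cbp80 and 5.56, 6.34 and 3.31 in WT. AT3TU072970 had 8.61, 9.75 and 9.91 units in se-2, 8.22, 6.08 and 6.74 in cbp20 cbp80 and 5.50, 6.43 and 4.14 in WT. For these last 2 units the least ratios to the dimmer genotypes were 1.33 and 1.35 by the leading probes. A second probe of AT5TU090130 had 8.51, 5.72 and 5.56 units in se-2 and 2.25, 2.50 and 2.22 in cbp20 cbp80. In WT it had 4.48, 7.23 and 1.62 units, so by that probe se-2 overlapped with WT but lay above all cbp20 cbp80 arrays.

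The 26 members complete in se-2 and WT were mostly brighter in WT than in either mutant. By their leading probes all 26 had a difference below 0 for se-2 against WT, with a median of -1.52. The same held for cbp20 cbp80 against WT, with a median of -1.93, or -1.49 with cbp20 cbp80 at its bounds. Further probes reached above 0 in AT2TU050360 (1.06 and 1.03), whose leading probe was complete in WT alone, and in AT4TU012770 (0.25 and 0.66). In AT3TU073490 this was so for se-2 only (0.080). The group's other members with several complete probes stayed below 0 by all of them. With the percentile over all probes 6 of the 26 turned above 0 for se-2 and 1 for cbp20 cbp80, 1 did so for se-2 with quantile normalization and with the deposited value table, and the medians stayed below 0 in all scalings run. Over all 1724 transcripts tested, 857 were below 0 for se-2 against WT (median 0.0089) and 687 for cbp20 cbp80 against WT (0.25). The requirement that WT but not cbp20 cbp80 be complete builds in part of this direction. For se-2 against WT the higher scaled detection limits of WT (4.17 to 7.10 units, against 2.97 to 3.14 in se-2) can do so too, which was not tested.

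AT5TU077800 was the brightest of these and the most different. It had 5.71, 5.18 and 5.32 units in se-2 and 2.90, 3.71 and 3.23 in cbp20 cbp80, against 157, 100 and 237 units in WT. Every mutant array lay far below every WT array. The difference of se-2 from WT was -4.84 ± 0.29 (SE, n = 3), and cbp20 cbp80, with no array well above background, was at least 29.7-fold lower than WT. Its other probes had 1.13 to 4.41 units in se-2, 1.06 to 1.85 in cbp20 cbp80 and 48.2 to 143 in WT, and were complete in WT alone.

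In AT1TU056640 all WT arrays lay above all mutant arrays by 3 probes. Its leading probe had 6.34, 6.29 and 5.58 units in se-2 and 6.43, 7.31 and 6.70 in cbp20 cbp80, against 37.8, 24.3 and 60.5 in WT, and the difference of se-2 from WT was -2.65 ± 0.30 (SE, n = 3). With 2 of its arrays well above background, cbp20 cbp80 was at least 5.61-fold lower than WT. A second probe, also complete in se-2 and WT, had a difference of -2.47 of se-2 from WT, and by the third, complete in WT alone, se-2 was at least 7.37-fold lower. AT5TU006260 had 4.03, 4.35 and 3.51 units in se-2, 3.85, 3.25 and 2.98 in cbp20 cbp80 and 20.9, 19.2 and 64.1 in WT. AT4TU003040 had 4.70, 7.37 and 7.73 units in se-2, 7.04, 6.74 and 4.38 in cbp20 cbp80 and 26.0, 20.3 and 35.3 in WT. By these probes the mutants overlapped with each other in both units and lay below all WT arrays. A second probe of AT4TU003040 had 6.85, 5.07 and 5.66 units in se-2, 4.57, 5.38 and 3.67 in cbp20 cbp80 and 10.1, 3.81 and 12.8 in WT. By that probe WT replicate 2 lay below every se-2 array.

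AT3TU074150 had its low values in cbp20 cbp80 alone. It had 10.7, 12.4 and 12.6 units in se-2, 5.14, 4.98 and 5.48 in cbp20 cbp80 and 17.8, 9.05 and 18.8 in WT. No cbp20 cbp80 array was well above background. The signal in se-2 was at least 2.17-fold that in cbp20 cbp80, and cbp20 cbp80 was at least 2.66-fold lower than WT, while se-2 and WT overlapped. By its leading probe AT5TU067070 had WT values of 27.0, 5.50 and 51.1 units, so that WT replicate 2 lay among the mutant arrays. These ranged from 5.17 to 7.60 in se-2 and from 4.33 to 5.52 in cbp20 cbp80. By a second probe WT replicate 2 had 7.04 units, just above the highest mutant values of 6.28 in se-2 and 7.01 in cbp20 cbp80.

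The 23 members complete in WT alone had a median signal of 2.12 units in se-2 and 2.64 in cbp20 cbp80, against 14.9 in WT. In 14 of them no se-2 array was well above background, and in 19 no cbp20 cbp80 array was. The median difference from WT of the measured signals was -2.82 in se-2 and -2.38 in cbp20 cbp80, or -2.09 and -1.46 with the dim mutants at their bounds. The measured medians were below 0 in every scaling run. As these members were chosen for being complete in WT and in neither mutant, the sign itself is no result.

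AT2TU021440 had the most signal in WT. It had 0.662, 1.42 and 1.18 units in se-2 and 1.35, 1.11 and 1.40 in cbp20 cbp80, against 128, 13.4 and 66.3 in WT. The lowest WT array was above all mutant arrays. It was at least 15.9-fold lower in se-2 and at least 9.27-fold lower in cbp20 cbp80 than in WT. A second probe had 1.3 to 2.61 units in se-2, 3.83 to 5.17 in cbp20 cbp80 and 16.7 to 37.2 in WT.

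AT3TU052620 had 1.19, 1.80 and 1.85 units in se-2 and 5.01, 1.06 and 4.94 in cbp20 cbp80, against 69.2, 20.7 and 22.3 in WT. It was at least 10.5-fold and 5.90-fold lower than WT in se-2 and cbp20 cbp80. AT5TU080910 had 3.45, 2.89 and 3.42 units in se-2, 5.35, 6.33 and 4.72 in cbp20 cbp80 and 21.2, 32.5 and 24.7 in WT, and was at least 7.73-fold and 4.30-fold lower. AT5TU022680 had 1.54, 0.709 and 1.05 units in se-2, 1.73, 1.07 and 1.43 in cbp20 cbp80 and 13.8, 22.8 and 24.5 in WT, and by a second probe too every mutant array lay below every WT array. Its bounds were at least 6.51-fold lower in se-2 and at least 3.79-fold lower in cbp20 cbp80.

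AT3TU029400 had 0.624, 0.695 and 1.52 units in se-2, 0.985, 1.04 and 1.85 in cbp20 cbp80 and 33.4, 7.77 and 34.5 in WT. AT2TU053010 had 3.05, 3.29 and 3.40 units in se-2, 4.77, 3.40 and 5.64 in cbp20 cbp80 and 16.6, 14.9 and 52.6 in WT. In both units every mutant array lay below every WT array. The mutants themselves were hard to tell apart in this group, where no mutant was complete and the medians of the pair lay below every scaled detection limit.

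The 14 members complete in cbp20 cbp80 alone had a median of 3.61 units in se-2, 8.64 in cbp20 cbp80 and 5.17 in WT. All 14 had a difference of se-2 from cbp20 cbp80 below 0, with a median of -1.25 (-1.20 with se-2 at its bounds), which was below 0 also in each other scaling. Over all 1724 transcripts tested, 1234 were below 0, with a median of -0.21. As these members were chosen for being complete in cbp20 cbp80 and not in se-2, the sign itself is no result. Of the 14, 9 were well above background on 2 se-2 arrays. AT2TU020560 had 4.13, 3.59 and 2.91 units in se-2, 16.1, 9.96 and 9.54 in cbp20 cbp80 and 4.94, 8.27 and 3.32 in WT, and cbp20 cbp80 lay above every array of the others. It was at least 3.26-fold higher in cbp20 cbp80 than in se-2 and at least 1.67-fold higher than in WT.

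AT2TU031070 had 3.93, 5.27 and 2.51 units in se-2, 8.67, 10.1 and 9.16 in cbp20 cbp80 and 7.42, 1.15 and 3.19 in WT. AT5TU061100 had 0.809, 4.0 and 3.09 units in se-2, 7.51, 9.40 and 9.17 in cbp20 cbp80 and 1.64, 1.63 and 5.42 in WT. In both, cbp20 cbp80 lay above every other array. AT3TU066600 had 59.1 units on the array of cbp20 cbp80 replicate 1 against 6.27 and 8.12 on the other 2, and 4.15, 5.96 and 2.23 in se-2. AT5TU046770, with 11.1, 15.7 and 15.4 units in cbp20 cbp80, had WT values of 2.84, 8.93 and 34.0 that spanned it, and AT2TU056360, with 8.35, 8.42 and 9.55 units, had WT values of 8.84, 7.26 and 2.19.

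The 5 members complete in cbp20 cbp80 and WT were low in se-2. AT5TU071970 had 3.00, 2.13 and 3.40 units in se-2 and 45.0, 15.8 and 15.7 in cbp20 cbp80, against 24.7, 75.2 and 50.9 in WT. It was well above background on 1 se-2 array, and se-2 was at least 7.04-fold lower than cbp20 cbp80 and at least 14.4-fold lower than WT. By all 3 of its probes every se-2 array lay below every other array. By the second probe se-2 was at least 4.39-fold lower than cbp20 cbp80 and at least 10.96-fold lower than WT, and by the third, complete in WT alone, at least 7.26-fold lower than WT.

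AT3TU040390 had 1.63, 3.53 and 1.92 units in se-2 and 11.99, 8.33 and 8.66 in cbp20 cbp80, against 92.8, 9.17 and 102 in WT, where replicate 2 lay within the range of cbp20 cbp80. It was at least 3.02-fold lower in se-2 than in cbp20 cbp80. AT1TU077320 had 6.51, 4.36 and 3.42 units in se-2, 7.04, 8.43 and 11.6 in cbp20 cbp80 and 15.8, 17.4 and 13.0 in WT. AT3TU052180 had 4.28, 3.17 and 6.19 units in se-2, 10.5, 10.2 and 7.65 in cbp20 cbp80 and 14.0, 12.3 and 9.45 in WT, and AT1TU095450 had 6.08, 6.66 and 3.43 units in se-2, 10.2, 8.89 and 10.4 in cbp20 cbp80 and 12.4, 19.1 and 11.2 in WT. In each of the 5, all se-2 arrays lay below all cbp20 cbp80 and all WT arrays, beside 45.4% of all transcripts tested with se-2 below all cbp20 cbp80 arrays and 26.3% with se-2 below all WT arrays. The requirement that se-2 alone not be complete builds in part of this direction.

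**Figure D4:**
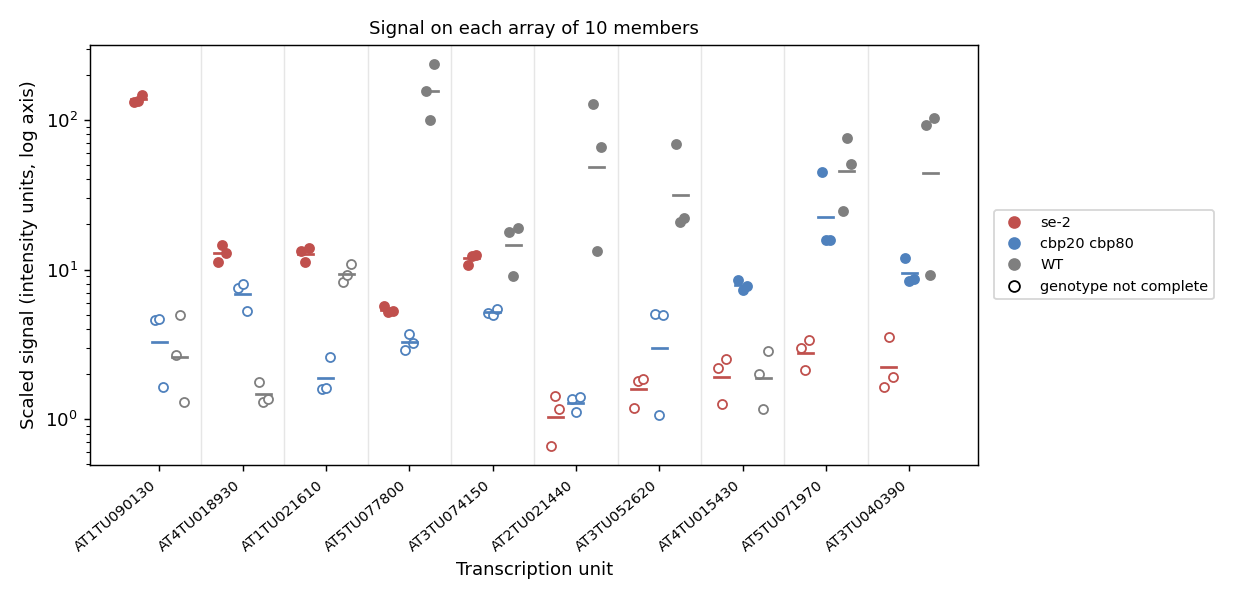
Scaled signal on each array (points, log axis) and mean of the log2 signals (lines) of 10 members in se-2, cbp20 cbp80 and WT; open points belong to a genotype that was not complete. AT1TU090130 is high in se-2 alone (131 to 147 units), AT5TU077800 and AT2TU021440 are high in WT, and AT5TU071970 is low in se-2 (2.13 to 3.40 units).

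The 2 members complete in both mutants owed this to different probes. In AT4TU015430, 1 probe had 2.19, 1.26 and 2.52 units in se-2, 8.53, 7.31 and 7.71 in cbp20 cbp80 and 2.02, 1.17 and 2.86 in WT, so that cbp20 cbp80 stood above both other genotypes. Its other probe had 5.47, 5.47 and 6.81 units in se-2 and 5.91, 8.02 and 6.11 in cbp20 cbp80, which overlapped. In AT1TU011640 the leading probe had 5.10, 3.05 and 4.98 units in se-2 and 5.31, 8.76 and 8.92 in cbp20 cbp80, so that se-2 lay just below cbp20 cbp80. By its other probe, with 6.08, 5.26 and 4.56 units in se-2 and 6.71, 8.31 and 5.95 in cbp20 cbp80, the mutants overlapped.

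Beyond these named units, the probes of a member did not always give the same order. The members had 716 probes, of which 280 were complete in a genotype, and 287 of the other 436 were well above background on no array. Of the 31 members with more than 1 complete probe, all such probes had the same sign in 24 for se-2 against WT, in 22 for cbp20 cbp80 against WT and in 22 for se-2 against cbp20 cbp80. Single spots could also stand alone: AT4TU027070 had 96.1 units on the array of cbp20 cbp80 replicate 3 against 2.89 and 3.49 on the others of that genotype. This unit was chosen after its values were seen. A spot more than 4-fold above the next of its genotype occurred in 2 members in se-2, 5 in cbp20 cbp80 and 18 in WT, or 0.826%, 2.08% and 7.5% of those with 3 values, against 0.141%, 0.563% and 6.77% of the units complete on all 6 mutant arrays.

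Over the whole set, limma's fit with Benjamini-Hochberg adjustment over the 3103 probes tested called 17 members higher and 60 lower in se-2 than in WT, at an adjusted p under 0.05. These were 7.02% and 24.8% of the members, beside 18.1% higher and 19.8% lower of all 1724 transcripts tested. In cbp20 cbp80, 22 members were called higher and 60 lower than in WT (9.09% and 24.8%), beside 24.2% and 14.2% of all transcripts. Between the mutants, in a fit of their 6 arrays, 19 members were called higher in se-2 and 25 lower than in cbp20 cbp80 (7.85% and 10.3%), beside 11.5% and 36.0% of all transcripts. By the arrays themselves, 26 members had every se-2 array above every WT array and 67 had every one below, beside 23.1% and 26.3% of all transcripts. For cbp20 cbp80 against WT these were 26 above and 67 below, beside 28.8% and 18.7%, and for se-2 against cbp20 cbp80 26 above and 40 below, beside 14.9% and 45.4%. The rule used these same contrasts, so nothing is read from the counts. The comparisons with WT share the WT arrays.

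The split of calls moved with the scaling. For se-2 against WT it was 14 higher and 64 lower with median scaling, 56 and 44 with quantile normalization and with the deposited value table alike, 91 and 32 with the percentile over all probes, and 1 and 241 with normexp. Of all 1724 transcripts these were 293 and 391 with median scaling, 451 and 280 with quantile normalization and 445 and 278 with the deposited table. The percentile over all probes gave 941 and 85 of them, and normexp 147 and 1282. For cbp20 cbp80 against WT the split among members was 13 and 71 with median scaling, 44 and 51 with quantile normalization, 46 and 52 with the deposited table and 62 and 43 with the percentile over all probes. Normexp gave limma 0 higher calls there, also at an unadjusted p under 0.05, and 102 lower. Of all transcripts these were 324 and 363 with median scaling, 421 and 271 with quantile normalization and 419 and 277 with the deposited table. The percentile over all probes gave 836 and 113 of them, and normexp 154 and 421. For se-2 against cbp20 cbp80 the split among members was 26 and 17 with median scaling, 49 and 8 with quantile normalization and the deposited table, 46 and 10 with the percentile over all probes, and 1 and 241 with normexp. Of all transcripts these were 323 and 372 with median scaling, 350 and 259 with quantile normalization and 359 and 255 with the deposited table. The percentile over all probes gave 490 and 152 of them, and normexp 130 and 1431.

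With the slide as a random block, 3 members were called for se-2 against WT, all lower: AT5TU077800, AT5TU080910 and AT1TU056640. For cbp20 cbp80 against WT 1 was called, AT5TU077800, again lower. Limma called 0 members higher in either mutant in that fit, against 2 in se-2 and 1 in cbp20 cbp80 at an unadjusted p under 0.05. The block allows for spread between slides but does not separate the slide of the mutants from their genotypes. AT5TU077800 and AT1TU056640 were complete in se-2 and WT, and AT5TU080910 in WT alone. The members were chosen by these same arrays, and the share of all transcripts called in that fit was not counted. Nothing is therefore read from these counts.

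The members lay on all 5 chromosomes. By the digit in their names, 55 were on chromosome 1, 50 on 2, 38 on 3, 34 on 4 and 65 on 5, or 22.7%, 20.7%, 15.7%, 14.0% and 26.9%, against 25.4%, 22.0%, 16.7%, 14.4% and 21.4% of all 3569 units. Another 930 units had names with coordinates, and in all 930 the digit was that chromosome and the numbers ran in the order of the coordinates without a break. Members can therefore be placed between such neighbours, in coordinates whose genome build the names do not give. AT1TU090130 is numbered between AT1TU089280, which starts at base 26569596 of chromosome 1, and AT1TU091680, at 27257725. AT5TU077800 is numbered between AT5TU076750, at base 22267784 of chromosome 5, and AT5TU078350, at 22752875. AT2TU021440 falls between AT2TU021080, at base 6647427 of chromosome 2, and AT2TU022050, at 6904533, and AT5TU071970 between AT5TU071480, at base 20771574 of chromosome 5, and AT5TU072010, at 20917213. Whether these places are exonic, intronic or between genes was not analysed here.

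Some members were neighbours of each other in this numbering. A member stood next to another member among the units without coordinates in 25 of 242 cases (10.3%). A unit complete on all 6 mutant arrays stood next to another such unit in 306 of 711 (43.0%). The 2 sets hold 242 and 711 of the 3569 units, so the larger set has more neighbours to begin with. The share to be had from set size alone was not computed, and nothing is read from these shares. The longest run, chosen after its values were seen, was AT5TU010980, AT5TU010990, AT5TU011070 and AT5TU011230, all complete in se-2 alone and numbered between units that start at bases 3164475 and 3312085 of chromosome 5. AT5TU010980 had 5.48, 6.22 and 6.98 units in se-2, 7.20, 7.67 and 6.61 in cbp20 cbp80 and 6.66, 5.30 and 1.83 in WT. In each of the 4 units the se-2 arrays overlapped with those of cbp20 cbp80 and of WT.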

How the data were processed

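Total RNA of 9 seedling samples was labelled with Cy3 and hybridised to 1-colour arrays, per the labels' protocols. The authors deposited an intensity per spot for each array, made by Agilent Feature Extraction 10.5.1.1 (WT replicates 1 and 2) or 10.7.3.1 (other arrays), per the file headers, with background subtracted and no normalization between arrays. The deposited value table holds log2 values of unstated normalization. Its column medians were 0.322 to 0.323, its rank correlation with the signal was 0.988 to 1, and its centring stays unknown. Its results lay close to those of quantile normalization, so these 2 settings need not be separate checks. For the 172 members complete in se-2 alone, the median difference of se-2 from WT was 0.993 and 1.02.

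Here, control spots and outlier spots were left out of the fits (4 spots of members' leading probes), and no spot was saturated. The log2 signal was reduced by each array's 75th percentile over 1835 probes, and the mean of these percentiles was added back. Probes complete in at least 1 genotype (3103) were tested by limma 3.58.1 in R 4.3.3, over 9 arrays against WT and over 6 between the mutants, and the fits were tested on simulated data. A fold written "at least" takes, on each dim array, the probe's own signal or the array's detection limit, whichever was larger. Same-numbered replicates did not deviate together (correlations -0.0483 to 0.0298).

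Members and lists were chosen with earlier results of these data known. Named units were, per group of complete genotypes, the 6 with the largest least ratio to the dimmer genotypes, the 3 brightest, all of a group of 3 or fewer, and 3 on either side of the threshold. Normexp used the median spot signal. Figures were drawn with matplotlib 3.10.9.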

Additional observations from a re-analysis of the deposited data

How the results depend on the processing

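The number of units by the rule ranged from 205 to 305 when 1 array was left out, was 244 with outlier spots counted as dim, and became 967 with the software's weaker flag for a positive and significant signal, of which 11 were among the 242. Leaving out 1 array gave 60 to 101 members called for se-2 against WT (77 with all arrays), 63 to 102 for cbp20 cbp80 against WT (82) and 35 to 49 for se-2 against cbp20 cbp80 (44). For se-2 against WT the count became 123 with the percentile over all probes, 242 with normexp, 16 with array weights and 3 with the slide as a block. For cbp20 cbp80 against WT it became 16 with array weights and 1 with the slide as a block. For se-2 against cbp20 cbp80 it became 242 with normexp and 10 with all 9 arrays in the fit, where the WT arrays enter the estimate of spread. The cause of these changes was not tested. A filter that kept the brighter 50% of tested probes left no member, so it gave no value. The replicate number as a block gave 70, 76 and 35 calls, and no label pairs the samples. Apart from the scalings, the share of all transcripts called in these fits was not counted, so nothing is read from their counts.

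Normexp turned the sign of 25 of 68 differences of named units, 11 of which the fit had called. The percentile over all probes turned 3, the deposited values and quantile normalization 1 each, and median scaling 0, with none of these called. For se-2 against cbp20 cbp80, normexp gave -0.15 for AT1TU021610, -0.40 for AT3TU072970, -0.33 for AT3TU074150, -0.21 for AT4TU018930, -0.30 for AT5TU049660 and -0.42 for AT5TU077800. For se-2 against WT it gave -0.66 for AT3TU072970, -0.55 for AT4TU018930 and -0.73 for AT5TU090130. For cbp20 cbp80 against WT it gave -0.29 for AT2TU020560 and -0.27 for AT4TU015430. The members' signals lay close to the detection limits, and this limits every level given for them.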
